A study of Mus musculus with 54 samples.

Results

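Wee1, Rhob, Bmt2 and Mtmr10 are 4 of the 16632 genes counted in primary microglia of the mouse (the macrophages of the brain), and all 4 were among the 13169 genes that passed the filter on low counts. They were picked by symbol, as genes said to fall between 15 and 300 min of co-culture in cells loaded with alpha-synuclein (aSyn). In the deposited counts this direction held for 3 of them only. The same libraries chose the genes, so this is a description and no test. Over all tested genes, 46.2% had a negative fitted log2 change between these times in those cells. The share of all genes that were lower, or higher, in every pair is a stricter measure and was not recorded. Wee1, Rhob and Mtmr10 were lower at 300 than at 15 min in every same-numbered pair of aSyn-loaded libraries, whereas Bmt2 was higher at 300 min in all 4 pairs. The 4 are therefore described below as 3 genes that were lower late and 1 that was higher late.

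Microglia of neonatal C57BL/6 mice, pooled over brains, were shaken off an astrocyte layer and gave 54 libraries in 14 groups. Donors received 1 µM aSyn labelled with Atto-488 for 14 h, acceptors received no aSyn but the dye CellTracer Violet, and the 2 were mixed for 15, 30, 60, 150 or 300 min and sorted apart again by flow cytometry. The remaining groups were donors and acceptors labelled 0 min, aSyn-treated cells without co-culture and untreated cells. Libraries were made with QuantSeq, which reads the 3′ end of each transcript. The protocol does not explain the 0 min groups, and it does not say whether cells without co-culture went through the sorter, so aSyn, dye, sorting, seeding density and co-culture cannot be told apart between those groups and the co-cultured cells. Replicate numbers 1 to 4 are called experiments here, and the labels give them passages 3, 1, 2 and 2. Same-numbered untreated libraries were summed, which left 52 units: 4 in each group, except 3 in donors and acceptors at 0 min (no experiment 4), donors at 60 min (no experiment 2) and acceptors at 300 min (no experiment 3). The labels do not say that experiments came from separate animals, so p-values measure the spread between these samples. Whether the ranges of groups overlapped was recorded for these 4 genes only, so non-overlap has no share of all genes beside it.

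Library totals ranged from 7807389 to 15537493 counts. Experiment 4 stood apart: the ribosomal RNA precursor Rn45s took 18.2% of its counts on average against 6.60% in the others, and its summed microglial markers were the lowest, with a median of 2405 CPM (counts scaled to the library total) against 3890 to 4776 in experiments 1 to 3. Microglial markers (8 genes) summed to 1549 to 5303 CPM, astrocyte markers (8) to 7.59 to 139, oligodendrocyte markers (5) to 63.6 to 516, neuronal markers (4) to 0 to 28.5, and fibroblast and endothelial markers (4 in the table) to 0.427 to 36.7 CPM. The homeostatic microglial genes P2ry12 and Tmem119 were the lowest of the 8, with medians of 5.65 and 4.71 CPM. Cx3cr1 had a median of 209 CPM and Csf1r of 1517 CPM. Markers within a list differed: the astrocyte gene Aqp4 was at 0 in 27 units, but Slc1a3, Aldoc and Aldh1l1 in 0. The neuronal gene Snap25 was at 0 in 30 units, but Rbfox3 in 6 and Map2 in 2.

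Wee1 encodes the nuclear kinase that adds the inhibitory phosphate to CDK1 and so delays entry into mitosis, and its transcription is a known output of the circadian clock. Rhob encodes a small GTPase that sits on endosomes as well as at the plasma membrane and is known as an immediate early gene, switched on fast by growth factors and stress. Bmt2, also called SAMTOR, encodes a sensor of S-adenosylmethionine that acts on GATOR1, the brake of the growth kinase complex mTORC1. Mtmr10 encodes a myotubularin, a family of phosphatases of endosomal phosphoinositides in which several members, Mtmr10 among them, lack catalytic activity.

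On GRCm38 all 4 are protein-coding genes: Wee1 at chr7:110122046-110143286 (plus strand), Rhob at chr12:8497661-8500009 (minus strand), Mtmr10 at chr7:64287653-64340806 (plus strand) and Bmt2 at chr6:13625673-13677966 (minus strand). The promoters are shown because 2 of these genes, Rhob and Mtmr10, moved in the opposite direction to Bmt2 in the same libraries. RefSeq promoters matched 3 of the 4 genes, and each line gives the 250 bases before the RefSeq start on GRCm38.p6, in the direction of transcription: Rhob at chr12:8500010-8500259, minus strand, Mtmr10 at chr7:64287420-64287669, plus strand, and Bmt2 at chr6:13677967-13678216, minus strand. Capitals mark a CCAAT box (CCAAT or ATTGG) or a GC box (GGGCGG or CCGCCC).
Rhob: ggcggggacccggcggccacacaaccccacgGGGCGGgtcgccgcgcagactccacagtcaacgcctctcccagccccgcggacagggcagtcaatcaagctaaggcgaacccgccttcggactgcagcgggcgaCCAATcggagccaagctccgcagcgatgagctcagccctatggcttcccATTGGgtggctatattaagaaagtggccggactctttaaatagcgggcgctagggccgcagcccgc
Mtmr10: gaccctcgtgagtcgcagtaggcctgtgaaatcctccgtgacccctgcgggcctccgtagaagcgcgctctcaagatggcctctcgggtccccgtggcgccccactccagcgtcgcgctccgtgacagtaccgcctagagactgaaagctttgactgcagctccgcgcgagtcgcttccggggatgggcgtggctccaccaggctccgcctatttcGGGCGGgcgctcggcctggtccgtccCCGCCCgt
Bmt2: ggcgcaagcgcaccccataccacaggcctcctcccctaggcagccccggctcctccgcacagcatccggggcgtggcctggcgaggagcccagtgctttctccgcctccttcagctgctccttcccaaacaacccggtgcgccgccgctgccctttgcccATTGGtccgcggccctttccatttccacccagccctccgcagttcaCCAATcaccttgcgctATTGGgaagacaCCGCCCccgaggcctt
The GC box was found in all 3 promoters and in 32.7% of the 32851 promoters in the table. The CCAAT box was found in Rhob (2 matches) and Bmt2 (3 matches), not in Mtmr10, and in 33.8% of all promoters. On both strands, none of the 3 held the E-box CACGTG (6.02% of all promoters), the AP-1 motif TGANTCA (6.75%), the CRE TGACGTCA (1.55%), the FOXO motif GTAAACA (3.17%) or the TATA box TATAAA (12.4%). GC content was 66% in Rhob, 68.4% in Mtmr10 and 67.2% in Bmt2, against a median of 52.4% over all promoters. A match of this kind is a match of letters in this window only.

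Wee1 was a low-count gene, with at least 33 counts in each. Among the donors at 15 min it stood at 16.7, 10.3, 14.8 and 20.5 CPM in experiments 1 to 4. At 300 min the donor values were 7.43, 3.34, 5.16 and 3.06 CPM. Every late value lay below every early one, and the paired log2 difference averaged -1.76 ± 0.68 (SD, n = 4 pairs), from -1.17 in experiment 1 to -2.75 in experiment 4. The level at 300 min was 30.5% of that at 15 min. This contrast chose the genes and so carries no test here. As its background, edgeR's quasi-likelihood test called 10 of the 13169 genes in it, all lower (0.0759%), and 98 once the replicate number entered the fit as a block (0.744%).

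The donor level of Wee1 was flat over the first hour and lower afterwards. It averaged 14.0 ± 2.01 CPM (n = 3) at 0 min, 15.6 ± 4.27 (n = 4) at 15 min, 14.5 ± 3.82 (n = 4) at 30 min and 14.2 ± 2.25 (n = 3) at 60 min, against 9.41 ± 2.51 (n = 4) at 150 min and 4.75 ± 2.02 (n = 4) at 300 min. These early donor levels were close to the 13.2 ± 2.93 CPM of aSyn-treated cells and the 12.2 ± 4.17 CPM of untreated cells. Acceptors held less: 5.81 ± 1.45, 5.03 ± 1.03, 6.80 ± 1.85, 8.24 ± 1.64, 7.98 ± 1.22 and 4.57 ± 0.40 CPM at 0, 15, 30, 60, 150 and 300 min. In the order of the 14 group means, from donors at 15 min down to acceptors at 300 min, no gap between neighbours exceeded the larger SD of the pair.

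Rhob stood at 265.6, 118, 166 and 106 CPM among donors at 15 min in experiments 1 to 4. At 300 min the values were 69.5, 42.7, 44.9 and 39.3 CPM. The ranges did not overlap, experiment 1 was the highest at both times, and the paired log2 difference was -1.68 ± 0.27 (SD, n = 4 pairs). The donor mean fell most between 60 and 150 min. It was 175 ± 67.9 CPM at 0 min, 164 ± 72.5 at 15 min, 175 ± 66.8 at 30 min and 225.5 ± 185 at 60 min (n = 3). It then stood at 66.5 ± 14.9 at 150 min and 49.1 ± 13.8 at 300 min. The wide SD at 60 min is due to experiment 1, at 439 CPM, while experiments 3 and 4 stood at 124 and 113 CPM. Single experiments differed in timing. Experiment 3 went from 193 CPM at 30 min to 124 at 60 and 59.6 at 150 min. Experiment 4 went from 113 CPM at 60 min to 75.6 at 150 and 39.3 at 300 min.

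Rhob in single acceptor libraries ran from 35.7 CPM at 150 min to 186 CPM at 30 min, beside 70.9 to 126 CPM in untreated cells. Acceptors averaged 67.1 ± 26.9, 100.3 ± 45.9, 127 ± 52.1, 94.6 ± 32.0, 62.2 ± 28.5 and 56.7 ± 12.7 CPM from 0 to 300 min, beside 97.8 ± 23.2 CPM in untreated and 114 ± 33.2 CPM in aSyn-treated cells. From 30 to 150 min Rhob was lower in all 4 acceptor pairs, by -1.05 ± 0.27 in log2, and in all 4 donor pairs, by -1.35 ± 0.46. No gap between neighbours in the order of the 14 means exceeded the larger SD of the pair.

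Mtmr10 stood at 35.7, 35.6, 36.6 and 32.0 CPM among donors at 15 min in experiments 1 to 4. At 300 min the values were 23.1, 22.3, 19.3 and 14.3 CPM. All 4 late values lay below all early ones, and the paired log2 difference was -0.85 ± 0.25 (SD, n = 4 pairs). Donor means stepped down over time, from 35.0 ± 2.05 at 15 min and 34.6 ± 4.67 at 30 min to 29.1 ± 4.18 at 60 min, 24.7 ± 3.43 at 150 min and 19.7 ± 4.0 CPM at 300 min. The last of these lay beside the 20.5 ± 2.64 CPM of untreated cells, and the early ones beside the 36.4 ± 3.54 CPM of aSyn-treated cells. Acceptors stayed between means of 15.4 ± 1.49 CPM (300 min, n = 3) and 19.98 ± 3.05 CPM (150 min, n = 4). In the order of the 14 means, 2 of the 13 gaps exceeded the larger SD of the pair: from donors at 60 min to donors at 150 min, and from there to untreated cells.

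Bmt2 ran the other way. Among donors at 15 min it stood at 117, 137, 103 and 89.3 CPM in experiments 1 to 4. At 300 min the values were 232.4, 305, 149 and 127 CPM. The ranges overlapped, because experiment 4 at 300 min lay below experiment 2 at 15 min, but Bmt2 was higher at 300 min in each pair, by 0.80 ± 0.33 in log2 (SD, n = 4 pairs). Donor means were 130.1 ± 6.91 CPM at 0 min, 112 ± 20.3 at 15 min, 109.9 ± 28.0 at 30 min, 127 ± 51.0 at 60 min, 163 ± 76.2 at 150 min and 203 ± 81.3 at 300 min.

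Bmt2 in donors thus started near the 109.7 ± 25.5 CPM of aSyn-treated cells and stood at 300 min near the 195 ± 78.1 CPM of untreated cells. Acceptors began high, at 246.3 ± 33.7, 223 ± 67.4 and 224.8 ± 40.8 CPM at 0, 15 and 30 min, and stood at 192 ± 41.3, 152 ± 69.04 and 214 ± 95.5 CPM at 60, 150 and 300 min. Experiment 2 was the highest and experiment 4 the lowest in untreated cells and in acceptors at 15, 30, 60, 150 and 300 min. The spread between experiments was as wide as the gaps between neighbouring groups, none of which exceeded the larger SD.

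**Figure D1:**
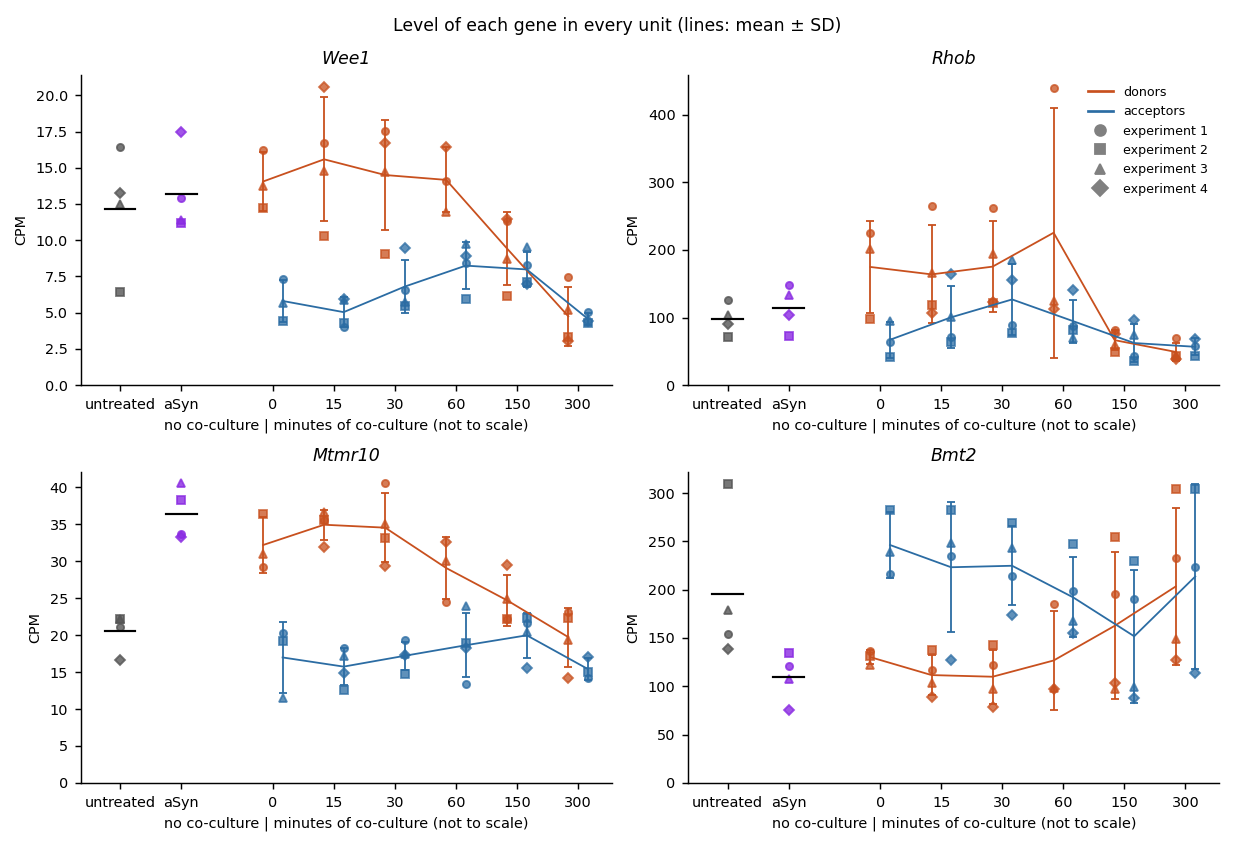
Level of Wee1, Rhob, Mtmr10 and Bmt2 in CPM (linear axis) in each of the 52 units, by group, with co-culture time in minutes (not to scale). Symbols mark experiments, orange points and lines donors, blue ones acceptors, and lines with bars the mean ± SD. Wee1, Rhob and Mtmr10 of the donors are lower after 60 min, and Bmt2 of the donors is higher at 300 than at 15 min. Acceptor levels move too: from 30 to 150 min Rhob and Bmt2 are lower in 4 of 4 acceptor pairs.

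Cells exposed to aSyn without co-culture were compared with untreated cells, which uses none of the libraries that chose the genes. Mtmr10 rose and Bmt2 was lower. Mtmr10 was 33.7, 38.2, 40.6 and 33.3 CPM in aSyn-treated cells of experiments 1 to 4. In untreated cells it was 21.1, 22.2, 22.2 and 16.7 CPM. The groups did not overlap, and edgeR's quasi-likelihood test gave a log2 fold change of 0.83 (SE 0.17, adjusted p = 0.00257), higher in 4 of 4 pairs. That test called 2.5% of all genes, and 1 of the 4 here. The adjusted p was 0.0606 when the spread was estimated from these 2 groups alone.

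Bmt2 was 121, 135, 108 and 75.1 CPM in aSyn-treated cells of experiments 1 to 4. In untreated cells it was 154, 309.7, 179 and 138 CPM. No aSyn-treated value reached the lowest untreated one, and Bmt2 was lower in 4 of 4 pairs. The log2 fold change of -0.83 (SE 0.33) did not pass in edgeR without pairing (adjusted p = 0.167). With the replicate number as a block it passed, at -0.81 (SE 0.17, adjusted p = 6.44e-04), where edgeR called 19.2% of all genes. Wee1 (0.12, adjusted p = 0.855) and Rhob (0.22, adjusted p = 0.821) passed in neither edgeR fit.

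Untreated cells also held the highest astrocyte, oligodendrocyte, neuronal, and fibroblast and endothelial marker sums of the 14 groups, by median and by maximum. Astrocyte sums were 11.3 to 139 CPM over 8 markers, against 11.2 to 29.3 CPM in aSyn-treated cells. Oligodendrocyte sums were 112 to 516 CPM over 5 markers, against 73.5 to 231.1 CPM. Neuronal sums were 2.12 to 28.5 against 1.28 to 2.86 CPM. Fibroblast and endothelial sums were 2.12 to 36.7 against 2.06 to 13.7 CPM. The part of these other cell types in the differences was not tested. In bulk RNA, fewer cells of a type and less RNA per cell cannot be told apart.

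Donors and acceptors were then compared at 30 min, where the same co-cultures gave both. Donors had received aSyn and acceptors the dye CellTracer Violet. The aSyn and the dye therefore cannot be told apart in any comparison of donors with acceptors. Wee1 and Mtmr10 were higher and Bmt2 lower in the donors. Mtmr10 was 40.6, 33.1, 35.1 and 29.4 CPM in donors and 19.4, 14.8, 17.4 and 17.2 CPM in acceptors of experiments 1 to 4. The groups did not overlap, and in edgeR the log2 difference was 1.01 (SE 0.17, adjusted p = 9.01e-04), higher in 4 of 4 pairs.

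Wee1 was 17.5, 9.05, 14.7 and 16.7 CPM in donors and 6.55, 5.45, 5.71 and 9.47 CPM in acceptors. Only the donors of experiment 2 lay within the acceptor range, below the acceptors of experiment 4. The log2 difference was 1.09 (SE 0.27, adjusted p = 0.0311 in edgeR), higher in 4 of 4 pairs. The Wee1 call was lost without experiment 1 (adjusted p = 0.229) or 3 (0.328), and from these 2 groups alone edgeR gave adjusted p-values of 0.213 for Wee1 and 0.0743 for Mtmr10.

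Bmt2 was 122, 142, 97.5 and 78.1 CPM in donors and 213.8, 268.7, 243.03 and 174 CPM in acceptors at 30 min. Every donor value lay below every acceptor value. Its log2 difference of -1.03 (SE 0.33) did not pass without the block (adjusted p = 0.141 in edgeR) and passed with it (-1.06, SE 0.17, adjusted p = 5.02e-05). Rhob was higher in donors in 3 of 4 pairs, with experiment 4 the exception, and did not pass (0.47, SE 0.39, adjusted p = 0.696 in edgeR). In all, edgeR called 2 of the 4 genes where it called 0.805% of all genes, and 3 of the 4 with the block, where it called 10.8%.

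At 150 min the gaps between donors and acceptors were small. The log2 differences were 0.24 (SE 0.26) for Wee1, 0.09 (SE 0.39) for Rhob, 0.31 (SE 0.17) for Mtmr10 and 0.10 (SE 0.32) for Bmt2. None of the 4 passed in edgeR (adjusted p from 0.638 to 0.982), with or without the block, where 0.167% of all genes were called without it and 5.19% with it. Bmt2 showed this most evenly: its donor-minus-acceptor log2 difference ran from -1.32 to -0.81 over the 4 experiments at 30 min and from -0.03 to 0.22 at 150 min. Both sides moved: from 30 to 150 min Bmt2 was lower in 4 of 4 acceptor pairs, by -0.67 ± 0.56 in log2 (SD). In donors it was higher in 3 of 4 pairs, by 0.48 ± 0.37. At 300 min, which shares libraries with the contrast that chose the genes and is given without a test, the paired log2 differences were -0.11 ± 0.59 for Wee1, -0.19 ± 0.55 for Rhob, 0.34 ± 0.52 for Mtmr10 and 0.07 ± 0.08 for Bmt2 (SD, n = 3).

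**Figure D2:**
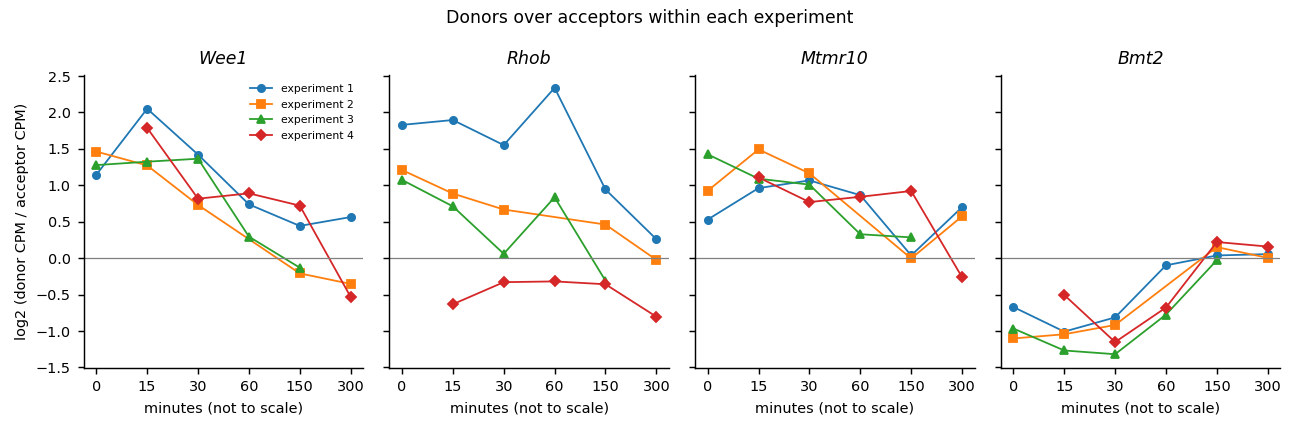
Log2 ratio of donor to acceptor CPM within each experiment, by co-culture time in minutes (not to scale). Each line is 1 experiment and joins the times at which it has both libraries. Wee1 and Mtmr10 start above 0 and Bmt2 below 0 in every experiment, and at 150 min the Bmt2 ratios lie between -0.03 and 0.22, while Rhob of experiment 4 is below 0 throughout.

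Whether the change from 30 to 150 min differed between donors and acceptors was tested as an interaction, again without the libraries that chose the genes. None of the 4 passed in edgeR. The estimates were 1.13 (SE 0.46) for Bmt2, -0.86 (SE 0.37) for Wee1, -0.70 (SE 0.23) for Mtmr10 and -0.37 (SE 0.55) for Rhob, each with an adjusted p that rounded to 1. With the block Bmt2 came to 1.17 (SE 0.24, adjusted p = 0.0705). edgeR called 0 of all 13169 genes here (0%, 151 with an unadjusted p under 0.05), 1 with the block (0.00759%), and DESeq2 called 0.

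The donors' own late change was tested from 30 to 150 min. Rhob was 262.3, 122, 193 and 124 CPM at 30 min and 81.7, 49.1, 59.6 and 75.6 CPM at 150 min in experiments 1 to 4. All 4 late values lay below the early ones, and the share of all genes separated in this way was not recorded. The log2 change of -1.40 (SE 0.39) had an adjusted p of 1 in edgeR, and of 0.109 with the block. With the block and without experiment 4 it passed, at -1.57 (adjusted p = 0.0222), a setting chosen after seeing the data. Rhob here shares its 30 min donors with the comparison against acceptors.

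Wee1 donors were 11.3, 6.15, 8.73 and 11.5 CPM at 150 min, lower than at 30 min in 4 of 4 pairs by -0.62 ± 0.10 in log2 (SD). Mtmr10 donors were 22.2, 22.2, 24.9 and 29.5 CPM at 150 min, lower in 3 of 4 pairs, and Bmt2 donors were 195, 254.9, 97.3 and 103 CPM, higher in 3 of 4. In edgeR the changes were -0.63 (SE 0.26) for Wee1, -0.48 (SE 0.17) for Mtmr10 and 0.57 (SE 0.33) for Bmt2, and none passed with or without the block. edgeR called 0 of all genes (0%, 223 with an unadjusted p under 0.05), 9 with the block (0.0683%), and DESeq2 called 5.

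Donors at 150 min were also set against aSyn-treated cells, a comparison that shares the 150 min donors with the last one. Its log2 changes were -0.49 (SE 0.26) for Wee1, -0.78 (SE 0.39) for Rhob, -0.56 (SE 0.17) for Mtmr10 and 0.57 (SE 0.33) for Bmt2. All 4 had an adjusted p of 1 after rounding in edgeR, which called 0 genes (0%, 119 with an unadjusted p under 0.05), 0 with the block, as did DESeq2. For Mtmr10 the 4 donor values, 22.2 to 29.5 CPM, lay below the 4 aSyn-treated values, 33.3 to 40.6 CPM. The share of all genes separated in this way was not recorded, so this is a description only.

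Acceptors between 15 and 300 min, the same times as the contrast that chose the genes, showed no change in 3 of the 4 genes larger than their standard errors. Wee1 was 4.04, 4.26, 5.90 and 5.95 CPM at 15 min and 5.03, 4.27 and 4.42 CPM at 300 min. The log2 changes were -0.15 (SE 0.30) for Wee1, -0.03 (SE 0.18) for Mtmr10 and -0.06 (SE 0.35) for Bmt2. Rhob was 71.4, 63.8, 101 and 165 CPM at 15 min and 58.1, 43.4 and 68.6 CPM at 300 min, lower in 3 of 3 pairs by -0.82 (SE 0.43), and did not pass (adjusted p = 1 in edgeR, 0.780 with the block). edgeR called 0 of all genes (0%, 286 with an unadjusted p under 0.05), 0 with the block, and DESeq2 called 0. Whether the change from 15 to 300 min differed between donors and acceptors was not tested, since it uses the libraries that chose the genes.

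In acceptors at 300 min against untreated cells, Wee1 passed with the block and in DESeq2, but not in edgeR without the block. Wee1 was 16.5, 6.45, 12.5 and 13.2 CPM in untreated cells, and all 3 acceptor values lay below the lowest of these. Its log2 difference was -1.41 (SE 0.30, adjusted p = 0.221 in edgeR), and -1.34 (SE 0.22, adjusted p = 0.00119) with the block, lower in 3 of 3 pairs. DESeq2 gave an adjusted p of 0.0214, and the blocked call was lost without experiment 1 (adjusted p = 0.0586). Rhob in acceptors, at 43.4 to 68.6 CPM, also lay below the lowest untreated value of 70.9 CPM, and was lower in 3 of 3 pairs. How many of all genes were separated in this way was not recorded. The other differences were -0.79 (SE 0.43) for Rhob, -0.41 (SE 0.18) for Mtmr10 and 0.13 (SE 0.35) for Bmt2, and passed in neither edgeR fit. edgeR called 0 of all genes (0%, 721 with an unadjusted p under 0.05), 82 with the block (0.623%), and DESeq2 called 4. The dye, the sort and the co-culture cannot be told apart in this comparison. The higher astrocyte, oligodendrocyte, neuronal, and fibroblast and endothelial sums of untreated cells move with it, and their part was not tested.

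**Figure D3:**
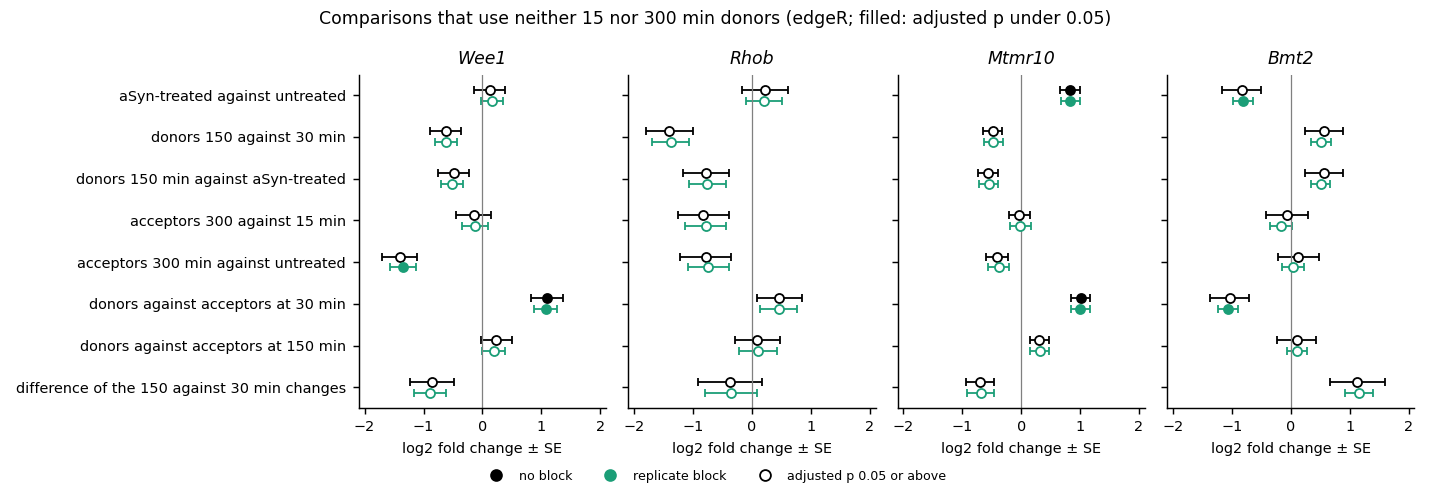
Log2 fold change ± SE from edgeR for the 8 comparisons that use neither the 15 nor the 300 min donors, without (black) and with (green) the replicate number as a block. Filled points have an adjusted p under 0.05 over all 13169 genes. Mtmr10 is filled for aSyn and for donors against acceptors at 30 min in both fits, and Bmt2 for both with the block only. Wee1 is filled for donors against acceptors at 30 min in both fits and for acceptors at 300 min against untreated with the block only.

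Without experiment 4, the one that stood apart in Rn45s and marker levels, the called values stayed past the threshold: Mtmr10 after aSyn 0.79 (adjusted p = 0.0109), and at 30 min donors against acceptors 1.08 (7.14e-04) for Mtmr10 and 1.23 (0.0298) for Wee1, all in edgeR. Bmt2 with the block was -0.77 (adjusted p = 0.00811 in edgeR) after aSyn and -1.02 (8.17e-04) at 30 min.

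Wee1 overlaps 1600010M07Rik, an antisense gene on the opposite strand. Its group means stayed between 5.98 and 8.47 CPM, and edgeR called it in no comparison with or without the block. Mtmr10 overlaps Gm45212 and Gm20457 on the opposite strand, neither of which is in the count table. Among other genes named below, Ccna2, Cdc25b, Nr1d1 and Pkmyt1 overlap the counted genes Exosc9, Spef1, Thra and Paqr4 on the opposite strand, and Trim47 overlaps Trim65 on its own strand. Whether the counting used strand is not given in the sources used here, so reads of such pairs cannot be told apart.

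The nearest genes by pattern were found by Pearson's r of log2 CPM over all 52 units after the experiment effect was removed. Units share their library depth and their group, so r is a description. Mtmr10 was nearest to Tsc22d3 (0.87), a glucocorticoid-induced leucine zipper gene, then to Slc27a1 (0.85), Lmna (0.84), Klf2 (0.83) and B4galt5 (0.82). Wee1 was nearest to Mtmr10 itself (0.80), then to Slc27a1 (0.76), Klf2 (0.74), Trim47 (0.73) and Ubald1 (0.72). Slc27a1, a fatty acid transporter, and Klf2, a Krüppel-like transcription factor, thus stood near both.

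Rhob was nearest to Jund (0.87), an AP-1 subunit, then to Srf (0.80), the serum response factor, Bhlhe40 (0.79), Cebpa (0.79) and Slc20a1 (0.78). Bmt2 was nearest to Slc15a4 (0.85), a lysosomal histidine and peptide transporter, then to Lmo2 (0.81), Spred1 (0.80), Fnbp1l (0.79) and Kcnj2 (0.79). Among the 4 themselves r was 0.60 for Wee1 with Rhob, 0.46 for Rhob with Mtmr10, -0.36 for Rhob with Bmt2, -0.69 for Wee1 with Bmt2 and -0.79 for Mtmr10 with Bmt2. Bmt2 had a negative r with the other 3 genes, over units that include the libraries that chose them.

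These neighbours differed in how far their levels ranged. They were picked by r over units that include the donors at 15 and 300 min. Their direction between these times follows in part from that choice. Klf2 averaged 188 ± 105 CPM in donors at 15 min and 21.3 ± 10.2 CPM at 300 min, beside 21.5 ± 9.24 CPM in untreated cells (SD, n = 4 each). Tsc22d3 averaged 96.3 ± 26.0 CPM in donors at 15 min and 38.0 ± 15.2 CPM at 300 min, with 24.8 ± 12.2 CPM untreated. Jund moved over a narrower range, from 174 ± 35.0 CPM at 15 min to 109.3 ± 17.7 CPM at 300 min. Slc15a4 averaged 77.96 ± 17.9 CPM in donors at 15 min and 98.5 ± 38.6 CPM at 300 min, a gap smaller than the SD at 300 min.

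Relatives and partners of Wee1, Bmt2 and Mtmr10 were counted to see whether they moved with these genes in the donors between 15 and 300 min. In 4 lists with 82 other tested genes, edgeR called none without the block (5 had an unadjusted p under 0.05), and with it only Bhlhe40. Of the 21 other genes of CDK1 and G2/M control, 12 had a negative log2 change and the median was -0.17, beside 0.02 over all tested genes. Cdk1 itself, the target of Wee1, changed by 0.21 (SE 0.50), the sister kinase gene Pkmyt1 by -1.15 (SE 1.43) and the opposing phosphatase gene Cdc25b by -0.23 (SE 0.48). None passed.

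Among 32 genes of amino acid sensing upstream of mTORC1 the median was -0.07, with 19 negative. Among the 13 other myotubularins the median was -0.01, and Mtmr12 and Mtmr11 changed by -0.05 (SE 0.15) and 0.39 (SE 0.52). In acceptors over the same times the G2/M, mTORC1 and myotubularin lists had medians of 0.02, -0.08 and -0.02, beside -0.02 over all genes. edgeR called 0 of the 82 listed genes in acceptors, with or without the block (1 had an unadjusted p under 0.05).

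Among the 16 tested clock genes edgeR called only Bhlhe40, in donors and with the block, over these times. The median log2 change of the list was -0.36 in donors, with 14 of 16 tested genes negative against 46.2% of all genes, and -0.40 in acceptors, with 13 of 16 negative against 52.8%. Bhlhe40, a clock repressor, averaged 17.3 ± 6.20 CPM in donors at 15 min and 6.36 ± 1.34 CPM at 300 min. Its log2 change was -1.44 (SE 0.40, adjusted p = 0.311 in edgeR), and -1.38 (adjusted p = 0.0153) with the block. Bhlhe40 is also among the 5 genes nearest to Rhob.

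**Figure D4:**
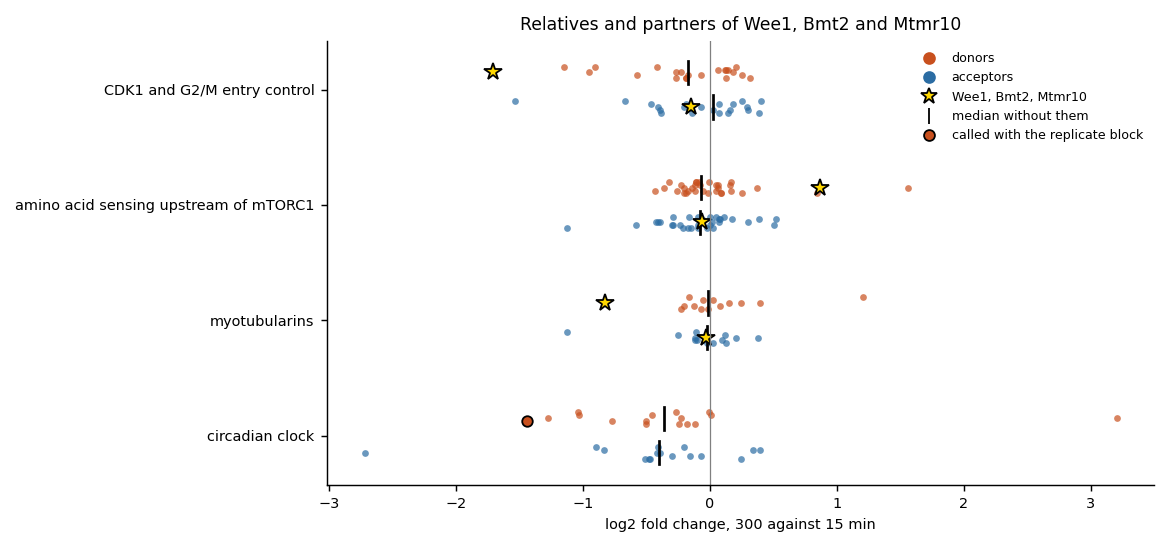
Log2 fold change from 15 to 300 min in donors (orange) and acceptors (blue) for every tested gene of 4 lists, with stars for Wee1, Bmt2 and Mtmr10 in their own lists and bars for the median of the other genes. Wee1 and Mtmr10 of the donors lie at the low end of their lists, at -1.71 and -0.82, and Bmt2 lies to the right, at 0.87. This donor contrast chose the genes, so the low place of Wee1 and Mtmr10 follows from that choice. The ringed point is Bhlhe40, the only listed gene called with the replicate block.

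After aSyn without co-culture edgeR called 0 of the 82 listed genes without the block (24 had an unadjusted p under 0.05). With it, the G2/M list had 10 lower and 4 higher of 21, the mTORC1 list 3 and 2 of 32, the myotubularins 3 and 0 of 13 and the clock list 2 and 6 of 16, where 10.2% of all genes were called lower and 8.95% higher. Cdk1 fell (-1.39 with the block, adjusted p = 1.86e-04 in edgeR), as did Ccna2, the cyclin of S and G2 phase (-1.61, 2.63e-05), and Cdc25b (-1.28, 2.14e-04). Gadd45b, a stress-induced gene, rose (1.91, 4.16e-06).

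Myotubularins that passed with the block fell while Mtmr10 rose: Sbf2 (-0.57, adjusted p = 9.35e-04 in edgeR), Mtmr11 (-1.22, 0.00195) and Mtmr12 (-0.49, 0.0122). In the mTORC1 list Sesn1, a leucine-sensing sestrin, fell (-1.70, adjusted p = 2.87e-04 in edgeR with the block) and Lamtor3, a Ragulator subunit, rose (0.43, 0.00327). In the clock list Nr1d1 (1.84, adjusted p = 0.00137 in edgeR with the block) and Cry2 (1.26, 0.00156) rose.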

How the data were processed

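The authors deposited raw counts of reads per gene symbol for 54 QuantSeq libraries, per the file headers, and these were used. A normalized table of the same libraries was not used. STAR, Partek, DESeq2 and the build mm10 are named in the submitters' processing notes, without role or version. Strand use and annotation are not given in the sources used here. Library totals were 7807389 to 15537493 counts.

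The table has no columns of other samples. Same-numbered untreated libraries differed less (chi-square per degree of freedom 10.3 and 12.1) than other untreated pairs (24.2 to 288) and were summed. R 4.3.3 with edgeR 4.0.16 was run over all 14 groups with TMM scaling, filterByExpr (minimum count 10) and the quasi-likelihood test. Benjamini-Hochberg adjustment ran over the 13169 genes tested, and genes were called at an adjusted p under 0.05. The code was tested on simulated data. CPM are on TMM-scaled totals, and fold changes are log2.

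Replicate numbers come from the titles and pair the samples: deviations of same-numbered units correlated at 0.28 or more in every comparison. Different-numbered units averaged -0.19 to -0.12. Their highest value was 0.341, in acceptors at 300 min against untreated, above the lowest same-numbered value there (0.337). The blocked value is given where it changes a call. The biological coefficient of variation was 38.1% without and 21.0% with the block. Alternatives were scaling with RLE, no filter, DESeq2 1.42.0, the block, only the groups compared, each replicate left out, untreated libraries kept separate and, chosen after seeing the data, the block with each replicate left out.

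The 4 genes and all lists were chosen with earlier results of these data known. The contrast of donors at 300 against 15 min chose the genes, so they have no test there or in any comparison with those libraries. Other genes were named by rule: up to 3 per list called without the block, or else up to 2 with it, fixed relatives (Pkmyt1, Cdk1, Cdc25b, Mtmr12 and Mtmr11), and the 5 genes nearest to each member by Pearson's r of log2 CPM (prior count 2). One of the lists is not reported here. Gene positions are from the GENCODE annotation of GRCm38, and promoters from RefSeq.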

Additional observations from a re-analysis of the deposited data

How the results depend on the processing

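Counts of all genes called moved most. With the replicate block they were 2524 after aSyn, 9 (donors 150 against 30 min), 82 (acceptors at 300 min against untreated), 1416 and 684 (donors against acceptors at 30 and 150 min), 1 (interaction) and 98 (donors 300 against 15 min). DESeq2 gave 603, 5, 4, 223 and 88 for the first 5 of these and 27 for the last. With only the groups compared the counts were 37 after aSyn, 13 and 1 at 30 and 150 min and 3 for donors 300 against 15 min. Kept separate, the untreated libraries gave 618 after aSyn and 6 for acceptors at 300 min. Leaving out 1 replicate gave 73 to 301 after aSyn, 19 to 179 at 30 min, 8 to 29 at 150 min and 2 to 27 for donors 300 against 15 min.

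Of the 4 genes, the block called 2 after aSyn, 3 at 30 min and 1 in acceptors at 300 min against untreated. It called 19.2%, 10.8% and 0.623% of all genes there. DESeq2 also called 1 in the last of these. Only the groups compared called 0 after aSyn and 0 at 30 min. Leaving out replicate 1 or 3 left 1 at 30 min. With the block and 1 replicate left out, 2 were called after aSyn, 1 in acceptors at 300 min (0 without replicate 1) and 1 in donors 150 against 30 min (without replicate 4 only). The share of all genes called with the block and 1 replicate left out was not recorded, so these counts have no background beside them. The cause of these shifts was not tested. The paired analysis with the replicate block changed no other call of the 4 genes.

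Signs reversed only for values that did not pass. Leaving out each replicate gave the following ranges. In acceptors 300 against 15 min they were -0.13 to 0.11 for Mtmr10 (0.13 and 0.018 with the block, without replicates 1 and 3) and -0.26 to 0.057 for Bmt2, and Wee1 was 0.033 with the block without replicate 4. In acceptors at 300 min against untreated Bmt2 ran from -0.00094 to 0.31 (-0.11 with the block without replicate 1), and at 150 min Rhob from -0.14 to 0.34 (-0.077 with the block without replicate 1). In donors 300 against 15 min Pkmyt1 ran from -2.18 to 0.26. Wee1, with as few as 33 counts a unit, is the gene that depth limits most.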
